A study of Mus musculus with 6 samples.

Results

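The core ureteric epithelium transcription factors are 10 genes chosen by symbol: Gata2, Gata3, Pax2, Pax8, Emx2, Lhx1, Tfap2a, Tfap2b, Ehf and Grhl2. No cut on their values was used, but earlier results of these data were known when they were chosen. Each was represented by its single probe set with 1 gene symbol, and all 10 were found among the 19296 genes measured. RNA came from YFP-positive ureteric bud cells sorted from mouse kidneys at E15.5 after trypsin digestion and was hybridised to Affymetrix whole-transcript arrays. The 3 Dicer mutant arrays (Dicerc/-; Hoxb7Cre; Rosa26YFP) carried a conditional and a null Dicer allele, Hoxb7Cre, which drives recombination in the bud epithelium, and a YFP reporter of Cre activity. The 3 control arrays are labelled wild type. The protocol gives the sort on YFP for both groups, while the genotype label of the controls names no reporter or Cre. Effects of the null allele outside the bud cannot be told apart from loss of Dicer in the bud. Both groups had a mixed strain background, and the labels do not say if embryos were pooled for an array, so p-values cover only the spread between these samples.

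The bud is an epithelial tree that branches through the embryonic kidney and becomes its collecting duct system. Its identity rests on a small set of DNA-binding proteins. Pax2 and Pax8 act together at the start of the nephric lineage in the mouse, Gata3 and Lhx1 act with them in the nephric duct, and Emx2 is needed for the bud to function after it has entered the mesenchyme. Ehf, an ETS factor of epithelia, and Grhl2, a Grainyhead-like factor, belong to programmes of epithelial differentiation and barrier formation. Dicer cuts precursor hairpins into mature miRNAs, so the comparison asks which of these factors differed in transcript level once that step was removed in the bud.

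Of the 10 factors, 4 were lower in the Dicer mutant cells: Ehf, Gata2, Pax8 and Gata3. The other 6 did not pass the threshold of an adjusted p of 0.05 (limma, Benjamini-Hochberg over all 19296 genes), and 0 passed as higher. At an unadjusted p under 0.05 the counts were 5 lower and 1 higher, but the share of all genes at that cut was not counted. At the adjusted threshold 25.8% of all genes passed in either direction, 13.9% as lower and 11.8% as higher. The number of lower genes was 2690 on all arrays and 1764 without mutant replicate 1, where the same 4 factors still passed. All 10 factors were brightly measured, and brighter genes passed more often. Among the 4000 genes at least as bright as the dimmest of the 10, 37.3% passed, 19.0% as lower and 18.2% as higher. The share of the factors that passed, 4 of 10, was therefore near the share of similarly bright genes. The median log2 fold change of the 10 was -0.12, beside -0.05 over all genes and -0.00 over the 4000 bright genes.

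Markers of the labelled cell type were well measured. Of 13 ureteric epithelium markers, 12 lay above the median of all probe sets, 7.51 on the log2 scale, among them Cdh1, Epcam, Ret and Calb1. In limma 8 of the 13 fell, 1 rose and 4 did not pass, beside 19.0% of the 4000 bright genes as lower and 18.2% as higher. The gene that rose was Wnt9b, a nephron-inducing signal of the bud (2.67-fold), and Lcn2, a secreted lipocalin, fell by 2.57 on the log2 scale. Cdh1 (11.86 ± 0.03 in mutant cells and 11.82 ± 0.01 in control cells, SD, n = 3 each) did not pass. The marker lists were chosen with earlier results of these data known. Of the markers of other cell types, 7 of 8 for the early nephron (Pax8 and Lhx1 among them), 4 of 8 for cap mesenchyme, 2 of 8 for stroma and 1 of 7 for proximal tubule and podocytes lay above that median. For distal tubule, endothelium and blood cells the counts were 0 of 6, 0 of 7 and 0 of 4. In the proximal tubule and podocyte list Lrp2, the endocytic receptor megalin, rose (log2 fold change 1.05), Slc34a1 (-0.69) and Hnf4a (-0.31) fell, and 4 did not pass. Dicer1 itself, the targeted gene, was 9.80, 9.72 and 9.64 in mutant cells and 10.31, 10.38 and 10.25 in control cells. Its log2 fold change was -0.59 (limma, adjusted p = 0.0005), and a two-sided exact permutation test gave p = 0.1. That is the smallest p that 3 against 3 arrays allow. Arrays of a group correlated at Pearson's r of 0.996 to 0.998 over probe sets and arrays of different groups at 0.988 to 0.992, where probe sets are no independent replicates.

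The start regions of 3 of the factors that fell are shown because Gata3, Gata2 and Pax8 all fell. Each line gives the 250 bases before a RefSeq transcription start on build GRCm38.p6, written 5′ to 3′ on the strand of the gene. Capitals mark matches, on either strand, to 5 short motifs: AGATAA or TGATAA (the GATA factors' motif), GCCNNNGGC (AP-2 factors such as Tfap2a), GGAAGT (ETS factors such as Ehf), AACCGGTT (Grainyhead-like factors) and TAATTA (homeodomain factors such as Emx2 and Lhx1).
Gata3, chr2:9878601-9878850, minus strand: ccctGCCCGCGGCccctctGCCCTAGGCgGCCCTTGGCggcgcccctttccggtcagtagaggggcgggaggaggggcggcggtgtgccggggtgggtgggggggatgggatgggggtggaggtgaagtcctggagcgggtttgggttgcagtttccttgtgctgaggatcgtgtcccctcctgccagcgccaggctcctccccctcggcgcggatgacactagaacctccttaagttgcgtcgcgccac
Gata2, upstream start, chr6:88193641-88193890, plus strand: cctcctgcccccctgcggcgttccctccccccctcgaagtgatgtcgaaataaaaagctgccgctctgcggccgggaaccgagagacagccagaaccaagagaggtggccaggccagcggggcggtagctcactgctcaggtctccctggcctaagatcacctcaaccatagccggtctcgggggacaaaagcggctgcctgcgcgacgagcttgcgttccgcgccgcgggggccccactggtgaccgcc
Gata2, downstream start, chr6:88198414-88198663, plus strand: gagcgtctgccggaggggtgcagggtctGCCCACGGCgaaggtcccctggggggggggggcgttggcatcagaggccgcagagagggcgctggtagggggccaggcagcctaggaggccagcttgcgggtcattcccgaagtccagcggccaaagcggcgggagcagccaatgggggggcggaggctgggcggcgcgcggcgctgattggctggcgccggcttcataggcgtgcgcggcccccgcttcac
Pax8, chr2:24475600-24475849, minus strand: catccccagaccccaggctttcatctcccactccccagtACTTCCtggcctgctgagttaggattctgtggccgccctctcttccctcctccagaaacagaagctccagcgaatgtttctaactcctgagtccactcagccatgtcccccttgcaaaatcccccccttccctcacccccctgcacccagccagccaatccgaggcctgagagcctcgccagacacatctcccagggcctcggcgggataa

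The set of start regions used here held 12 such windows for 8 of the 10 factors. It held none for Ehf and Grhl2, whose starts were not looked for elsewhere. The Gata3 window held 3 separate matches to GCCNNNGGC, and the downstream Gata2 window held 1, as did 1 of the 3 windows of Pax2. Of 32851 windows of the same length over all genes, 13.7% held at least 1 such match. The Pax8 window held 1 match to GGAAGT, read on the opposite strand as ACTTCC, a motif found in 19.7% of all windows, and another Pax2 window held 1 match to it too. AGATAA or TGATAA occurred in 16.6% of all windows and in 0 of the 12 windows of the factors. AACCGGTT was rare, at 0.116% of all windows, and TAATTA, matched once in 1 window of Tfap2a, occurred in 4.84%. These matches describe letters in the sequence and are not binding sites measured here.

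**Figure D1:**
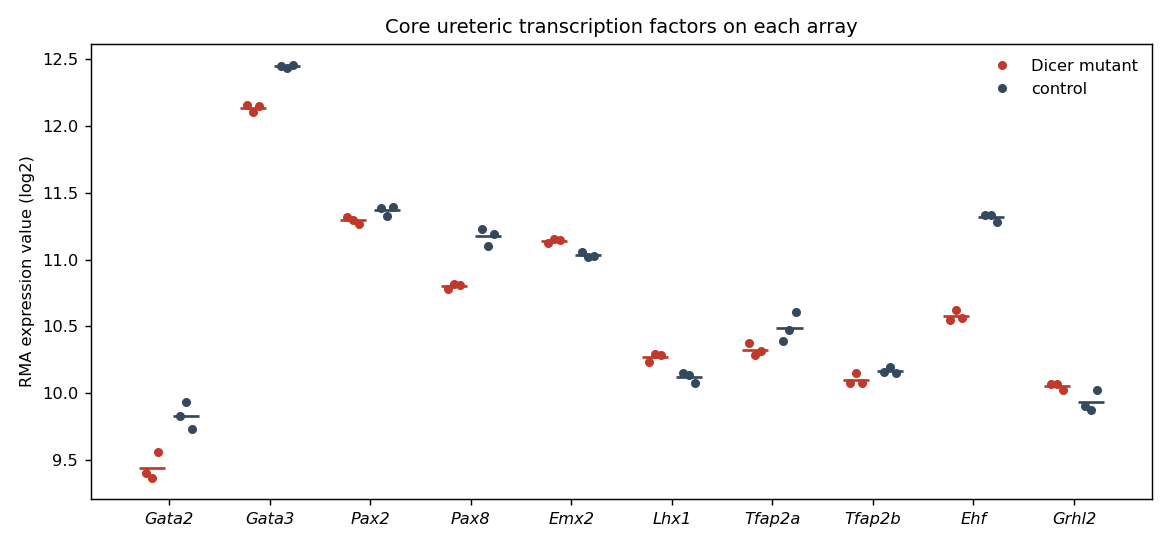
RMA expression values (log2, vertical axis) of the 10 core factors on each array; points are the 3 Dicer mutant arrays (left of each pair) and the 3 control arrays (right), and bars are group means. Ehf, Gata2, Pax8 and Gata3 show the widest gaps between groups, and the Grhl2 points overlap.

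Ehf showed the largest change of the 10. Its level was 10.55, 10.63 and 10.56 on the mutant arrays, against 11.33, 11.33 and 11.28 on the control arrays. All 3 mutant values lay below all control values, with a gap of 0.65 between the nearest arrays of the groups. Ehf had a log2 fold change of -0.73 ± 0.05 (SE), a mutant signal of 60.1% of control (limma, adjusted p = 0.000104). Ehf was the 1 factor past a change of 1.5-fold, a change called for 2.11% of all genes as lower and 2.87% as higher, and 2.68% of all genes had a larger absolute log2 fold change. RMA compresses differences, so such folds are those of the deposited scale.

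The genes whose profile over the 6 arrays lay nearest to that of Ehf were Wfdc15b, Ephb3 and Slc35f2. Nearness was the root mean square difference between log2 values centred on each gene's own mean, over all genes tested. Wfdc15b differed from Ehf by 0.016, Ephb3 by 0.037 and Slc35f2 by 0.041 log2 units. Ephb3, an ephrin receptor kinase, averaged 8.93 in mutant cells and 9.63 in control cells, a log2 fold change of -0.70. Each of the 3 genes was lower in the mutant, which the measure of nearness fixes, so their directions are a description.

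Gata2 and Gata3, zinc finger factors that bind the GATA motif, both fell. Gata3 is required for guidance of the mouse nephric duct and for Ret expression there, and Gata2 maintains water channel expression in the mouse collecting duct. Gata3 was 12.16, 12.10 and 12.14 in mutant cells, against 12.44, 12.43 and 12.46 in control cells. The groups were tight and well apart, with SDs of 0.03 (mutant) and 0.01 (control). Gata3 thus had a log2 fold change of -0.31 ± 0.05 (SE; adjusted p = 0.00342), with a 95% interval from -0.43 to -0.19.

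Gata2 was 9.40, 9.37 and 9.56 in mutant cells, against 9.83, 9.93 and 9.73 in control cells. Its arrays were the more scattered, with SDs of 0.11 (mutant) and 0.10 (control), yet the groups did not overlap. For Gata2 the log2 fold change was -0.39 ± 0.08 (SE; adjusted p = 0.00813). Both GATA genes are also active in endothelial and blood cells, so the markers of those cells are given beside them. Of 7 endothelium markers 0 passed in limma (1 lower at an unadjusted p under 0.05). Their median log2 fold change was -0.22, beside -0.05 over all genes. Their summed log2 level was 9.14 to 9.52 in mutant cells and 9.29 to 9.80 in control cells. Of 4 blood cell markers 1 fell, Ptprc (log2 fold change -0.45), and their summed level was 8.12 to 8.21 in mutant cells and 8.18 to 8.40 in control cells. The part of these cells in the Gata2 result was not tested. In sorted bulk cells, fewer cells of a type and less RNA per cell cannot be told apart, here and in the results that follow.

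Pax8 fell and Pax2 did not pass. These paired-box factors overlap in function in the nephric lineage, and Pax2 is also made by the nephron progenitors around the bud. Pax8 was 10.78, 10.82 and 10.81 in mutant cells, against 11.23, 11.10 and 11.19 in control cells. The groups did not overlap, and their nearest arrays lay 0.29 apart. Pax8 had a log2 fold change of -0.37 ± 0.06 (SE; adjusted p = 0.00236), a mutant signal of 77.3% of control.

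Pax2 was 11.32, 11.29 and 11.27 in mutant cells, against 11.38, 11.32 and 11.40 in control cells. The lowest control array and the highest mutant array differed by only 0.0033. For Pax2 the log2 fold change was -0.07, with a 95% interval from -0.20 to 0.05 (adjusted p = 0.35), so a fall as large as that estimated for Pax8 lay outside the interval.

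Whether 2 genes of a family changed unequally was tested on the difference between them within each array, for 3 pairs. That difference also holds the response of different probes, so only its change between groups is read. Pax2 minus Pax8 was 0.54, 0.47 and 0.46 in mutant cells, against 0.16, 0.22 and 0.21 in control cells, a change of 0.30 with no overlap. A two-sided exact permutation test gave p = 0.1 (0.3 adjusted over the 3 pairs), and 0.1 is the smallest p that 3 against 3 arrays allow, so the test cannot pass 0.05. Gata3 minus Gata2 changed by 0.08 (exact permutation p = 0.4, 0.5 adjusted) and Tfap2a minus Tfap2b by -0.09 (exact permutation p = 0.5, 0.5 adjusted). In both of these pairs the arrays of the groups overlapped.

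**Figure D2:**
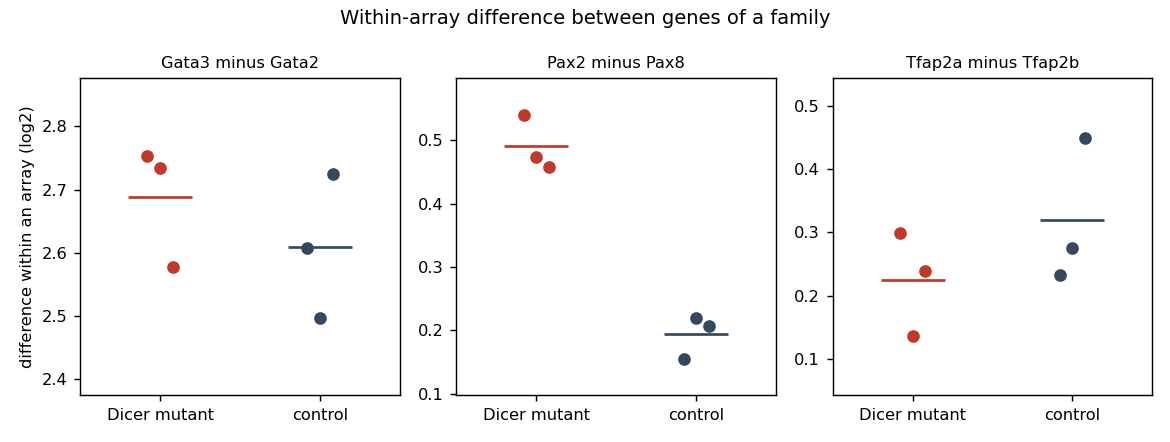
Within-array difference in log2 value between 2 genes of a family (vertical axes, all spanning the same range) for the 3 Dicer mutant arrays (left) and the 3 control arrays (right), with bars at the group means. The Pax2 minus Pax8 values separate, with a change of 0.30, and the values of the other 2 pairs overlap.

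Lhx1 and Emx2, the homeodomain factors of the set, had higher means in mutant cells and did not pass. Lhx1, a LIM-domain factor that drives extension of the nephric duct and also marks the first stages of the nephron, was 10.23, 10.29 and 10.29 in mutant cells, against 10.15, 10.14 and 10.08 in control cells. All mutant values lay above all control values, by a gap of 0.08. The log2 fold change of Lhx1 was 0.15, with a 95% interval from 0.02 to 0.27 (limma, adjusted p = 0.0813). It passed when each array was centred on its median (adjusted p = 0.0393), without dim genes (adjusted p = 0.0239) and with a variance trend (adjusted p = 0.0236). Over all its alternatives the adjusted p ran from 0.0236 to 0.193.

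Lhx1 is one of the factors with a miRNA relation known from another species: in Xenopus, the miR-30 family targets it in the developing pronephros. For that reason 3 mature mouse miR-30 sequences are shown, from RefSeq on build GRCm38.p6, with the seed (bases 2 to 8) in capitals. Other members of the family were not found by name in the set of sequences used.
miR-30a-5p: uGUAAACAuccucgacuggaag
miR-30c-5p: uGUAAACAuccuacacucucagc
miR-30e-5p: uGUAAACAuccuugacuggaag
The 3 sequences share 1 seed, GUAAACA. Mature miRNAs were not measured here, and a role of this family in the Lhx1 values was not tested.

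Emx2 was 11.12, 11.15 and 11.15 in mutant cells, against 11.06, 11.02 and 11.02 in control cells. These were the tightest mutant values of the 10 factors (SD 0.02), and the groups did not overlap. Its log2 fold change was 0.11, with a 95% interval from -0.01 to 0.23 (adjusted p = 0.156).

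Pax8 and Lhx1 are also early nephron genes, so the other 6 early nephron markers bear on cells of that kind among those sorted. Of the 6, Jag1 (log2 fold change 0.21) and Ccnd1 (0.28) rose, Wnt4 fell (-0.37) and Fgf8, Dll1 and Hes5 did not pass. Their summed log2 level was 13.09 to 13.16 in mutant cells and 12.88 to 12.98 in control cells. Ccnd1 and Jag1, the brightest of the 6, make up most of that sum. Their means were 12.59 and 11.02 in mutant cells, against 12.30 and 10.81 in control cells. Of the dimmer markers, Fgf8 and Hes5 were lower on every mutant array (log2 fold changes -0.25 and -0.25), and Dll1 had a log2 fold change of 0.17. Jag1 and Ccnd1 are also made by other cells, and the part of early nephron cells in the Pax8 and Lhx1 values was not tested.

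Pax2 is also made in the cap mesenchyme, the nephron progenitor tissue. Of 8 cap mesenchyme markers, Six2 rose (log2 fold change 3.29), Osr1 fell (-0.67) and 6 did not pass. Among the 6, Cited1 was higher on every mutant array (log2 fold change 0.27, adjusted p = 0.0503), and Eya1 and Meox1 had log2 fold changes of -0.05 and -0.15. Without Six2 the summed log2 level of the other 7 was 9.97 to 10.01 in mutant cells and 10.05 to 10.14 in control cells, whereas with Six2 it was 11.15 to 11.22 in mutant cells and 10.25 to 10.30 in control cells. The part of such cells in the Pax2 values was not tested.

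Tfap2a and Tfap2b, AP-2 factors expressed in the distal nephron and collecting duct, did not pass. Tfap2a was 10.38, 10.29 and 10.31 in mutant cells, against 10.39, 10.47 and 10.61 in control cells. The groups touched, with a gap of 0.01, and the control arrays were the more spread (SD 0.11). Tfap2a had a log2 fold change of -0.16 (adjusted p = 0.128), with a 95% interval from -0.32 to -0.00. Tfap2b, whose loss in the mouse causes cysts and death of tubule cells, was 10.08, 10.15 and 10.08 in mutant cells, against 10.16, 10.20 and 10.16 in control cells. Its log2 fold change was -0.07 (95% interval -0.19 to 0.05, adjusted p = 0.388), so a change as large as that of Ehf lay outside the interval.

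Grhl2, which activates the epithelial genes Ovol2, Cldn4 and Rab25 in collecting duct cells, was the 1 factor whose groups overlapped. It was 10.07, 10.07 and 10.02 in mutant cells, against 9.90, 9.87 and 10.03 in control cells. Control replicate 3 reached the mutant values. Its log2 fold change was 0.12 (95% interval -0.02 to 0.26, adjusted p = 0.188).

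Among the 10 factors the groups did not overlap for 7 that were lower and 2 that were higher. Over all genes 24.1% did not overlap as lower and 18.3% as higher, and 32.2% and 31.8% of the 4000 bright genes, so separation of 3 against 3 arrays is common in these data. The factors were measured with SDs of 0.02 to 0.11 in mutant cells and 0.01 to 0.11 in control cells. Their median SDs, 0.03 (mutant) and 0.04 (control), lay beside 0.04 and 0.06 for the 4000 bright genes. With a variance trend and robust prior, 7 of the 10 passed, as Tfap2a was called lower and Lhx1 and Emx2 were called higher. That setting called 30.3% of all genes, 16.1% as lower and 14.2% as higher, and 51.5% of the 4000 bright genes.

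**Figure D3:**
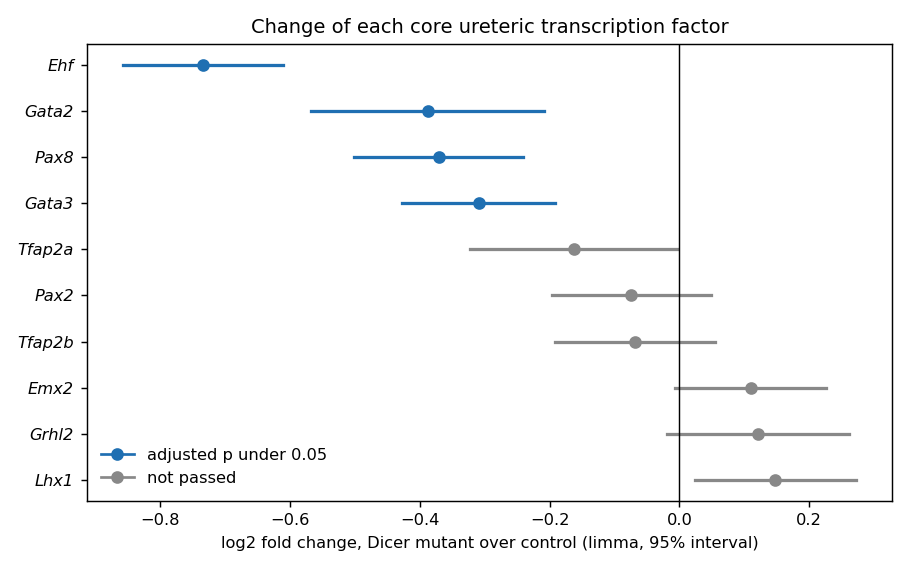
log2 fold change of each core factor, Dicer mutant over control (horizontal axis), with limma's 95% interval as a line; blue marks the 4 factors with an adjusted p under 0.05. Ehf stands at -0.73, Gata2, Pax8 and Gata3 between -0.39 and -0.31, and the other 6 between -0.16 and 0.15.

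Of 5 genes reported downstream of Pax2, Pax8, Gata3 and Lhx1 in the nephric duct and bud, 4 fell and 1 did not pass. Beside them, 13.9% of all genes and 19.0% of the 4000 bright genes passed as lower. The median log2 fold change of the 5 was -0.35. These genes were listed with earlier results of these data known, so the count is a description. Ret, the receptor of the tip that depends on Gata3, was 11.79, 11.87 and 11.81 in mutant cells, against 12.20, 12.15 and 12.17 in control cells. The groups were wholly apart, and the log2 fold change was -0.35 (adjusted p = 0.00258). A link between the values of these genes and those of the factors was not tested.

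Wnt11, a tip signal, fell by 0.60 on the log2 scale, Gfra1, the Ret co-receptor, by 0.35 and Npnt, the integrin ligand nephronectin, by 0.23. Pcdh19, a protocadherin, was 7.34 ± 0.04 in mutant cells and 7.33 ± 0.18 in control cells (SD, n = 3 each). In the collecting duct list, Aqp2, the water channel that depends on Gata2, did not pass (log2 fold change -0.21, adjusted p = 0.174). Its level, 7.34 ± 0.07 in mutant cells and 7.55 ± 0.21 in control cells (SD, n = 3 each), was near the median of all probe sets. Avpr2, the vasopressin receptor listed with it, was 7.29, 7.24 and 7.23 in mutant cells, against 8.57, 8.49 and 8.39 in control cells, a 2.35-fold lower signal (adjusted p = 2.56e-05).

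Of 7 epithelial targets of Grhl2, 2 fell, 1 rose and 4 did not pass (median log2 fold change -0.10). The share that passed, 3 of 7, was near the 37.3% of the 4000 bright genes. Rab25, a GTPase of apical traffic, was 9.79, 9.76 and 9.73 in mutant cells, against 10.61, 10.52 and 10.67 in control cells. The mutant signal of Rab25 was 55.8% of the control signal (log2 fold change -0.84, adjusted p = 9.2e-05), the largest change in this list. The tight junction gene Cldn3 fell by 0.50 on the log2 scale, and Esrp1, an epithelial splicing factor, rose by 0.22. Cldn4 and Cdh1, named after their values were seen, did not pass (log2 fold changes -0.00 and 0.03).

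Relatives of the factors from the same families were mostly dim. Of 26 such genes 5 lay above the median of all probe sets, and 4 fell, 1 rose and 21 did not pass, so 5 of 26 passed beside 25.8% of all genes. Lhx8, a LIM homeodomain factor, was 9.94, 9.75 and 10.03 in mutant cells, against 6.10, 6.51 and 5.94 in control cells. Lhx8 was thus far higher in every mutant array (log2 fold change 3.73, adjusted p = 9.08e-06), while Lhx1 of the same family differed by 0.15. Elf5, the ETS factor nearest in kind to Ehf, was 7.66, 7.67 and 7.66 in mutant cells, against 8.67, 8.60 and 8.35 in control cells. Elf5 fell by 0.88 on the log2 scale, whereas Elf3, another epithelial ETS gene, did not pass (log2 fold change 0.05).

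Grhl3, the Grainyhead-like factor of barrier epithelia, was 7.85, 7.19 and 7.49 in mutant cells, against 8.50, 8.02 and 8.81 in control cells. Both groups were scattered, and Grhl3 had a log2 fold change of -0.93 ± 0.22 (SE; adjusted p = 0.016). Lhx2 (-0.37) and Tfap2d (-0.36, named after its value was seen) fell as well, both at dim levels (under 7.51) in each group. The GATA and Pax relatives, 11 genes in all, held 0 that passed in limma and 1 (Gata6) lower at an unadjusted p under 0.05.

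Cofactors that bind the factors' proteins fell in 5 of 12 measured genes, rose in 1 and did not pass in 6, beside 13.9% of all genes as lower and 11.8% as higher, and 19.0% and 18.2% of the 4000 bright genes. Lmo4, a LIM-only protein that competes for the LIM cofactor Ldb1, was 9.95, 9.85 and 9.88 in mutant cells, against 10.35, 10.38 and 10.35 in control cells. The groups did not overlap, and the log2 fold change was -0.47 (adjusted p = 0.000683). Ssbp2, which stabilises Ldb1 complexes, fell by 0.44 on the log2 scale, and Ldb1 itself (-0.15) did not pass. Cited4, a coactivator of AP-2 factors, fell by 0.69, and its relative Cited2 had a log2 fold change of 0.01. Zfpm2, a partner of GATA factors, fell by 0.40 and Paxip1, a partner of Pax2, by 0.18. Tle4, a corepressor that Pax2 recruits, rose by 0.31. Zfpm2 and Paxip1 were named after their values were seen, and the cofactors were listed with earlier results of these data known.

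Other transcription factors of the ureteric epithelium formed a list of 12 measured genes. Of the 12, 6 fell, 2 rose and 4 did not pass, beside 19.0% of the 4000 bright genes as lower and 18.2% as higher, with a median log2 fold change of -0.28. Etv4 and Etv5, ETS factors that act below Ret signalling, both fell. Etv5 was 11.14, 11.13 and 11.16 in mutant cells, against 11.55, 11.58 and 11.59 in control cells, a log2 fold change of -0.43, and that of Etv4 was -0.79. Sox8 (-0.79), Myb (-0.77), Elf5 (-0.88) and Hoxb7 (-0.40) were the other 4 that fell, and Mycn (0.46) and Tfcp2l1 (0.26) rose. Sox9, a progenitor factor of the tip, did not pass (log2 fold change -0.16). The difference between this list and the core set was not tested, and the genes were listed with earlier results of these data known.

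**Figure D4:**
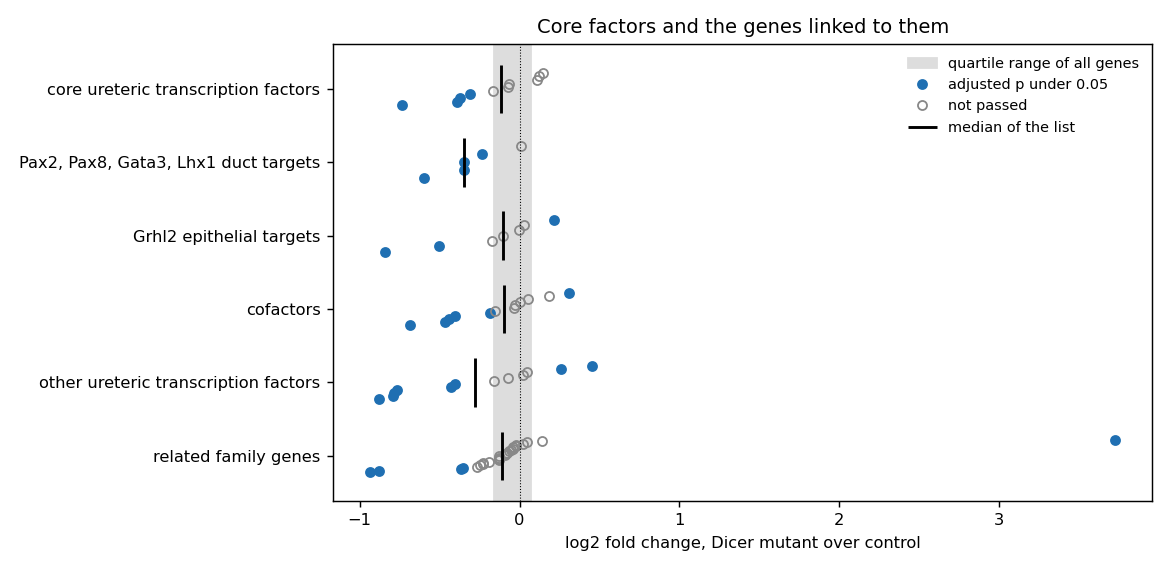
log2 fold change, Dicer mutant over control (horizontal axis), of each gene in the core set and 5 linked lists; filled points passed an adjusted p of 0.05, open points did not, black bars are list medians and the grey band runs from the lower to the upper quartile of all genes, -0.16 to 0.07. The duct target median stands at -0.35 and that of the core set at -0.12, and Lhx8 is the lone point at 3.73.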

How the data were processed

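The authors deposited log2 expression made with RMA, a value for each probe set on each array. Per the submitters' processing notes the tools were RMA and affy. Their versions, a genome build and filters were not given in the sources used here. This method forces arrays to a common distribution, so a shift of most transcripts would be removed, and it compresses changes of dim genes.

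Of 23309 probe sets, 20728 had 1 symbol in the platform annotation. The brightest per gene over the 6 arrays was kept, giving 19296 genes, and each of the 10 factors had 1 probe set. No detection call or batch was given. Genotype was the only term of a linear model per gene (limma 3.58.1, R 4.3.3, lmFit and eBayes, two-sided, 3.93 prior degrees of freedom), adjusted by Benjamini-Hochberg over all genes at 0.05. Family pairs used exact permutation, and Dicer1 used it beside limma. The fit was tested on simulated data. Members and lists were chosen with earlier results of these data known, and drawn from general knowledge. Named genes were the 10 factors, Dicer1, up to 4 called genes per list by smallest p (up to 3 per marker list), and the 3 genes nearest to Ehf, which had both the largest change and the smallest p of the 10. Others, chosen after their values were seen, were Cdh1, Epcam, Calb1, Aqp2, Pcdh19, Ldb1, Cited2, Zfpm2, Paxip1, Tfap2d, Elf3, Gata6, Cldn4, Sox9, Etv4, Hoxb7, Mycn, Tfcp2l1, Fgf8, Dll1, Hes5, Cited1, Eya1 and Meox1. Kctd15, also listed, was not analysed here, and 1 further listed gene is not reported here. Summed marker levels are log2 of summed linear values. Figures were drawn with matplotlib 3.10.9. Same-numbered arrays did not deviate together (correlations of -0.19, -0.10 and -0.22).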

Additional observations from a re-analysis of the deposited data

How the results depend on the processing

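The 4 factors that fell passed under all 13 alternative fits, and each of the 10 kept its direction. These fits were the replicate block, each of the 6 arrays left out, median centring, quantile normalization and probe set means. They also took in dim genes left out, a variance trend with robust prior, and array weights. The block, probe set means, dim genes left out and the trend leave each factor's log2 fold change as it was. Direction could therefore change only in the remaining fits. The count of the factors that passed as higher, 0 in the report, was 1 with median centring and 1 with dim genes left out (Lhx1 in both), and 2 with the trend, where 7 passed in all. At 1.5-fold, 1 passed (lower), with 10 list members, 961 genes in all, 408 lower and 553 higher. At an adjusted p of 0.01, 2790 genes passed, 1423 lower and 1367 higher. Leaving out 1 array gave 1764 to 2973 lower genes, against 2690 with all, the least without mutant replicate 1. The replicate block gave 3603 genes and left the 4 factors called. The pair change for Pax2 minus Pax8 was 0.30 in the paired form, where the smallest possible exact p is 0.25, and its leave-one-out range was 0.27 to 0.31. The replicate numbers name samples and are not said to pair them. Causes of these shifts were not tested. With 3 arrays a group, changes of about 0.15 on the log2 scale, such as that of Lhx1, lie at the edge of what passes, and the number of arrays limits precision.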
